A study of Mus musculus with 9 samples.

Results

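The secretoglobins of the androgen-binding protein family were followed in the submandibular gland (SMG) of adult male mice. The 8 genes were chosen by symbol, namely the alpha subunit genes *Scgb1b27*, *Scgb1b24* and *Scgb1b20* and the beta or gamma subunit genes *Scgb2b27*, *Scgb2b26*, *Scgb2b24*, *Scgb2b20* and *Scgb2b7*, among 48733 rows of the count table. All 8 have a row in that table, and 5 have a row in the authors' filtered table of 17562 rows. *Scgb1b20*, *Scgb2b20* and *Scgb2b7* have none there and count as not detected. The table also holds 61 other rows named as secretoglobins.

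One RNAseq library was made per mouse from 4 wild type (WT) and 5 *Hs3st3a1*;*Hs3st3b1* double knockout (DKO) males. Both deleted genes encode heparan sulfate 3-O-sulfotransferases, enzymes that add a sulfate group to heparan sulfate chains. The DKO is a germline deletion on a C57BL/6 background, with a LacZ cassette in *Hs3st3b1* and a frameshift deletion in exon 1 of *Hs3st3a1* made by a zinc finger nuclease. It is therefore not limited to the gland, and the founder line of these 5 mice is not given in the sources used here. *Hs3st3a1* counts were 3 to 14 in WT and 0 in every DKO library, and *Hs3st3b1* counts were 67 to 216 in WT and 7 to 45 in DKO. Library totals were 17053747 to 37870519 counts.

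Androgen-binding protein is a secreted protein of mouse saliva and tears. It is a dimer in which an alpha subunit, encoded by an *Scgb1b* gene, is bound by disulfide bridges to a beta or gamma subunit, encoded by an *Scgb2b* gene. In saliva the known dimers join the product of *Scgb1b27* to that of *Scgb2b26* or *Scgb2b27*, while other genes of the family are known from the lacrimal gland. The protein binds steroids in vitro and has been studied as a cue in mate choice. In the adult male SMG, acinar cells make the bulk of the secreted salivary proteins, and androgen-dependent granular ducts make kallikreins and growth factors.

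In GENCODE M21 (GRCm38), 64 *Scgb1b* and *Scgb2b* genes and pseudogenes lie together on chromosome 7 between 31255891 and 34100837, and 29 of them are annotated as protein-coding. Each of the 5 *Scgb2b* genes examined stands head to head with an *Scgb1b* gene or pseudogene, the former on the minus strand and the latter on the plus strand. *Scgb1b27* (34021483 to 34022881) starts 7541 bp from *Scgb2b27* (34011921 to 34013942). *Scgb1b24* (33743799 to 33744982) starts 4487 bp from *Scgb2b24* (33737190 to 33739312). The partner of *Scgb2b26* (33943002 to 33945040) is a pseudogene, *Scgb1b26-ps*, whose start lies 13765 bp away. *Scgb1b20* (33373234 to 33374559) and *Scgb2b20* (33364343 to 33366322) are paired in the same way, and *Scgb2b7* (31703779 to 31705757) has *Scgb1b7* as its partner.

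Promoters are shown for the 5 detected genes because 3 of them moved together across the libraries while *Scgb2b24* and *Scgb1b24* are rare. RefSeq promoters of GRCm38.p6, from 250 bases before the annotated start to 50 bases after it, were found for 7 of the 8 genes, all but *Scgb1b20*. Each of the 7 holds the letters TATAAA on one of the strands, as do 13.6% of 32851 promoters of the same length. The lines below run 5′ to 3′ on the strand of the gene and end at this match, so that the 166 bases of each can be read against one another. Capitals mark TATAAA, which reads TTTATA when it lies on the other strand. They also mark the half-site of a steroid hormone response element, TGTTCT.
Scgb1b27: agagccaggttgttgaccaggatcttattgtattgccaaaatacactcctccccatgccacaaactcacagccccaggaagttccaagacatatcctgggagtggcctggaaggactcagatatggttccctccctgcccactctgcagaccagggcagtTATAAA
Scgb1b24: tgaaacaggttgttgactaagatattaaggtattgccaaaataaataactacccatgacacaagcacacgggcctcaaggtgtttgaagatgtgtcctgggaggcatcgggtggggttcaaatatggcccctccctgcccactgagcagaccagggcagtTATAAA
Scgb2b27: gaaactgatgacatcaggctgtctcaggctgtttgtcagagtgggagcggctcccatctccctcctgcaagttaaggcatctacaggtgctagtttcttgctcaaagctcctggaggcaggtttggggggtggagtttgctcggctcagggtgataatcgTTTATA
Scgb2b26: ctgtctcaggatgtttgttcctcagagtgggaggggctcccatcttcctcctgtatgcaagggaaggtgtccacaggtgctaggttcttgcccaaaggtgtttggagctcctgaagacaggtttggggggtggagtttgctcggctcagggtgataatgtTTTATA
Scgb2b24: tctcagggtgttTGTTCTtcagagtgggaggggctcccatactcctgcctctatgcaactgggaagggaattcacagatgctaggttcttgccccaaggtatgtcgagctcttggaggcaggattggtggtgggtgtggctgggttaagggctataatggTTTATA
The stretches lie at chr7:34021363-34021528 (plus strand), chr7:33743595-33743760 (plus), chr7:34013911-34014076 (minus), chr7:33945009-33945174 (minus) and chr7:33739335-33739500 (minus), in the order shown.

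The alpha promoters resembled each other, as did the beta or gamma promoters, and the 2 kinds did not resemble one another. Of the last 40 bases, *Scgb1b27* and *Scgb1b24* shared 36 and *Scgb2b27* and *Scgb2b26* shared 38, position by position. *Scgb2b27* and *Scgb2b24* shared 29, whereas an alpha and a beta or gamma promoter of those printed shared 10 to 14. The match ended before the RefSeq start in *Scgb1b24*, *Scgb2b26* and *Scgb2b24*, beginning 28, 29 and 45 bases before it. In *Scgb1b27* and *Scgb2b27* it began at base 43 and base 27 of the RefSeq transcript, so RefSeq places the starts of these genes further upstream relative to the shared letters. By GENCODE, *Scgb2b26* starts at 33945040 on the minus strand. Its match, which reaches to 33945009, then lies inside the transcript as well. TGTTCT, read on both strands with AGAACA, was found in the promoters of *Scgb2b24*, *Scgb2b20* and *Scgb2b7*, and in 19.0% of all promoters. These letters were not in the windows of *Scgb1b27*, *Scgb2b27*, *Scgb2b26* or *Scgb1b24*. The full element, AGAACA and TGTTCT set 3 bases apart, was in none of the 7 windows and in 3 promoters of the whole set. A match is a description of letters only.

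Levels were compared between genes as CPM per kb, that is counts per 1000000 counts scaled by the trimmed mean of M-values (TMM) and divided by the length of the first listed transcript. *Scgb2b27* and *Scgb1b27* had the highest levels, *Scgb2b26* followed, and the remaining genes were lower by orders of magnitude. In WT, *Scgb2b27* had 62512 ± 14507 CPM per kb (SD, n = 4), *Scgb1b27* had 58517 ± 23690 and *Scgb2b26* had 17439 ± 4405. In DKO the values were 125120 ± 45414 (SD, n = 5), 123474 ± 56646 and 37490 ± 18206. *Scgb2b27* and *Scgb1b27* overlapped in both genotypes, and *Scgb2b27* was the higher in 3 of 4 WT and 3 of 5 DKO libraries. *Scgb2b26* lay below both in every library at these transcript lengths. The lengths were 512, 493 and 579 bases for *Scgb2b27*, *Scgb1b27* and *Scgb2b26*, while all annotated exons together have 1571, 1005 and 579. The levels per kb of these 3 genes relative to one another therefore depend on the length used. *Scgb2b24* came next with 2.35 ± 2.24 CPM per kb (SD, n = 4) in WT and 21.8 ± 19.8 (SD, n = 5) in DKO, and *Scgb1b24* with 0.254 ± 0.233 and 5.81 ± 8.42. The order of this pair held in each of the 9 libraries, although their ranges overlapped in DKO. The annotated transcript of *Scgb1b24* has 279 bases, a multiple of 3 as in a model without untranslated ends, against 493 for *Scgb1b27*. Its CPM may thus be understated if the counting used such a model, and its level per kb overstated if the counting used a longer one. The 8 genes together took 7.92% ± 2.18 (SD, n = 4) of all counts in WT and 12.9% ± 4.04 (SD, n = 5) in DKO.

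*Scgb1b27*, the abundant alpha subunit, was higher on average in DKO, but not in every DKO gland. Its CPM in WT replicates 1 to 4 were 24234, 30857, 16359 and 43945. In DKO replicates 1 to 5 they were 31869, 74951, 77468, 30010 and 90064. DKO replicates 2, 3 and 5 lay above every WT library, and DKO replicates 1 and 4 lay inside the WT range. The log2 fold change of DKO over WT was 1.08 (SE 0.42, edgeR quasi-likelihood test, adjusted p = 0.254).

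*Scgb2b27*, a beta or gamma subunit gene and the head-to-head neighbour of *Scgb1b27*, had the same arrangement of libraries. Its CPM were 28066, 35051, 24078 and 40830 in WT and 36865, 74345, 86937, 41380 and 80780 in DKO. Replicates 2, 3 and 5 were again the high DKO libraries, while replicate 1 lay below the highest WT library and replicate 4 just above it. The log2 fold change was 1.0 (SE 0.33, edgeR adjusted p = 0.184).

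*Scgb2b26*, the beta or gamma subunit gene without an intact alpha neighbour, had CPM of 7911, 12341, 7866 and 12270 in WT and 9239, 24956, 33792, 12264 and 28283 in DKO. DKO replicates 2, 3 and 5 were above all WT libraries and replicates 1 and 4 were not. The log2 fold change was 1.10 (SE 0.38, edgeR adjusted p = 0.208).

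*Scgb2b24*, a beta or gamma subunit gene at much lower level, had the largest fold change of the 4 genes tested. Its CPM were 0.625, 2.98, 0.619 and 0.687 in WT and 1.82, 22.3, 22.2, 1.58 and 9.07 in DKO. These values rest on 14 to 78 counts per WT library and 40 to 542 per DKO library. WT replicate 2 stood above DKO replicates 1 and 4, so the groups overlapped, and DKO replicates 2, 3 and 5 were once more the highest. The log2 fold change was 3.22 (SE 0.87, edgeR adjusted p = 0.102). Without DKO replicate 4 it was 3.5 and passed the threshold (edgeR adjusted p = 0.0358), and without WT replicate 2 it was 4.14 and did not. Over all 19 alternatives the adjusted p ran from 0.017 to 0.343.

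**Figure D1:**
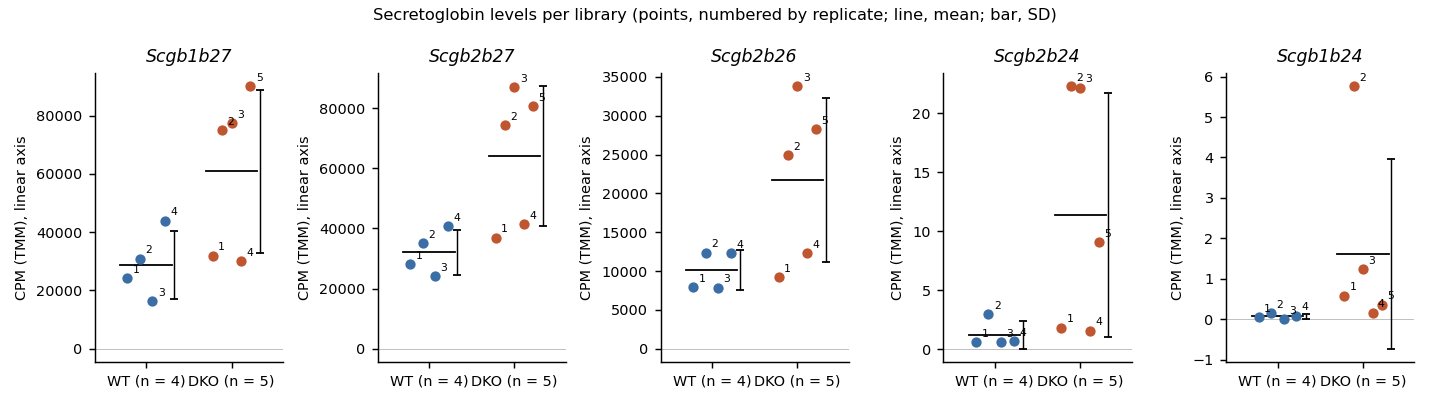
TMM-scaled CPM of the 5 detected genes in each WT (blue) and DKO (orange) library on linear axes, with the mean as a line and the SD as a bar; digits are replicate numbers. In the first 4 panels DKO replicates 2, 3 and 5 lie above all WT libraries, and DKO replicate 1 lies within the WT range. The SD bar of *Scgb1b24* in DKO reaches below 0 because replicate 2, at 5.76 CPM, stands far from the rest.

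None of these 4 tested genes passed an adjusted p of 0.05 in the edgeR test, where 0.166% of 13842 tested genes were called higher in DKO. All 4 had an unadjusted p under 0.05 and a positive fold change, against 6.89% of all tested genes. All 4 were at least 2-fold higher, against 1.44%, but 3 of them lay close to this limit. The count was 3 without WT replicate 1, 2 without WT replicate 3 or DKO replicate 2, and 1 without DKO replicate 3 or DKO replicate 5, a count chosen after seeing the data. The median log2 fold change was 1.09 over the 4 genes and 0.015 over all tested genes. The 4 values are not independent, since the genes moved together over the libraries. The threshold was passed under other settings. The DESeq2 Wald test, which the study's methods name, called *Scgb2b27* (adjusted p = 0.00624), *Scgb2b24* (adjusted p = 0.017) and *Scgb2b26* (adjusted p = 0.021) but not *Scgb1b27* (adjusted p = 0.138), and it called 1.81% of 13563 genes higher in DKO. Over the 19 alternatives the adjusted p ran from 0.00624 to 0.594 for *Scgb2b27*, from 0.021 to 0.493 for *Scgb2b26* and from 0.132 to 0.571 for *Scgb1b27*. These 3 calls fell to 0 when WT replicate 1 or WT replicate 3 was left out, and to 1, *Scgb2b27*, when DKO replicate 2 or DKO replicate 3 was.

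**Figure D2:**
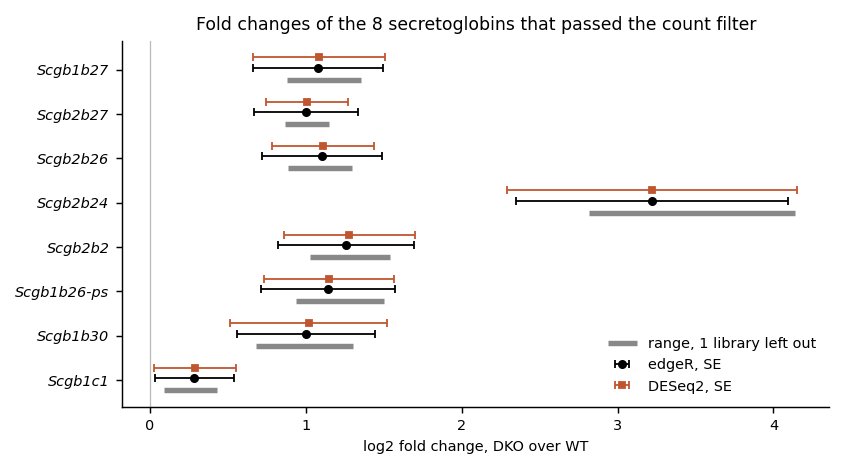
Log2 fold change of DKO over WT (x axis) for the 4 tested members and the 4 other secretoglobins that passed the count filter, from edgeR (black circle, SE), from DESeq2 (orange square, SE) and as the range over edgeR fits with 1 library left out (grey bar). The members lie between 1.0 and 3.22 in edgeR, and the grey bars stay above 0 for all 8 genes.

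*Scgb1b24*, the alpha partner of *Scgb2b24*, was too rare for the count filter. Its counts were 1, 4, 0 and 2 in WT replicates 1 to 4 and 20, 140, 27, 4 and 5 in DKO replicates 1 to 5. In CPM these were 0 to 0.153 in WT and 0.158 to 5.76 in DKO. The groups did not overlap, but WT replicate 2 and DKO replicate 4, with 4 counts each, were almost equal. Among the 13842 genes that passed the filter, the groups did not overlap with DKO higher in 2.49%, and none of the 4 tested members was among them. Pooled over libraries, 196 DKO counts against 7 WT counts gave a ratio of 27.5 (95% exact binomial interval 13.1 to 69.2, counting error only). Without DKO replicate 2, which held 140 of the 196 counts, the ratio was 9.86 (interval 4.48 to 25.6). In the edgeR test without the filter, *Scgb1b24* (log2 fold change 4.59, SE 1.0, adjusted p = 0.0252) and *Scgb2b24* (adjusted p = 0.0261) were called, and 0.421% of 26391 genes were called higher in DKO.

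*Scgb1b20*, *Scgb2b20* and *Scgb2b7* had few or no counts. *Scgb1b20* had 0 counts in all 9 libraries. If its reads were counted, this allows at most 0.0663 to 0.218 CPM, the value of 3 counts in each library. *Scgb2b20* had 2 counts in WT replicate 2 and 1 each in DKO replicates 2 and 4. *Scgb2b7* had 1 count each in DKO replicates 1 and 2. These 3 genes have near-identical copies. Of the 50-base words in their transcripts, 57.5%, 58.0% and 55.8% also occur in transcripts of other genes, so a read from them may have had no single origin, and how the authors' counting treated such reads is not given in the sources used here. The share was 0% for *Scgb1b27*, *Scgb1b24* and *Scgb2b24*, 1.70% for *Scgb2b26* and 6.48% for *Scgb2b27*.

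The ratio of the abundant subunits varied less over the libraries than their levels did. Counts of *Scgb2b27* per count of *Scgb1b27* were 1.16, 1.14, 1.47 and 0.929 in WT and 1.16, 0.992, 1.12, 1.38 and 0.897 in DKO. DKO replicates 2, 3 and 5, the libraries with high levels, lay below WT replicates 1, 2 and 3, and replicate 5 lay below all WT libraries, while the genotypes overlapped. The log2 ratio was 0.13 ± 0.24 (SD, n = 5) in DKO against 0.21 ± 0.27 (SD, n = 4) in WT, a difference of -0.08 (exact permutation test, two-sided, p = 0.603, adjusted over 3 ratios 0.825). The shifts that this test did not refuse at 0.05 ran from -0.46 to 0.28 on the log2 scale. The test runs over all 126 splits of 4 against 5 libraries. Its two-sided p doubles the smaller tail, so it cannot go below 0.0159, the value for fully separated groups.

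The same was seen for *Scgb2b26*. Its counts per count of *Scgb1b27* were 0.327, 0.400, 0.481 and 0.279 in WT and 0.290, 0.333, 0.436, 0.409 and 0.314 in DKO, and every DKO value lay inside the WT range. The log2 difference was -0.05 (exact permutation p = 0.825, adjusted 0.825), with an interval from -0.53 to 0.47. Leaving out WT replicate 3 turned the sign of both small differences, to 0.04 and 0.09. A p that misses the threshold does not show equal ratios, and these intervals give the shifts the data allow. Summed per kb, beta and gamma subunits over alpha subunits came to 1.45 ± 0.287 (SD, n = 4) in WT and 1.37 ± 0.209 (SD, n = 5) in DKO. *Scgb2b27* made up 78.2% ± 1.66 of the beta and gamma sum per kb in WT and 77.8% ± 2.86 in DKO. These sums and shares per kb depend on the transcript lengths used.

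The rare gene *Scgb2b24* varied more widely against the abundant *Scgb2b27*. It had 22.3, 85.1, 25.7 and 16.8 counts per 1000000 counts of *Scgb2b27* in WT and 49.3, 299.9, 255.1, 38.2 and 112.2 in DKO. DKO replicates 2, 3 and 5 lay above all WT libraries, and WT replicate 2 lay above DKO replicates 1 and 4. The log2 ratio of counts differed by 1.85 (exact permutation p = 0.0794, adjusted 0.238), with an interval from -0.09 to 3.79, which did not pass the threshold. Without WT replicate 2, the WT library above DKO replicates 1 and 4, the groups no longer overlapped and the difference was 2.34. The exact permutation p was then 0.0357 (unadjusted), the smallest that this two-sided test can give for those libraries. The other planned ratios, *Scgb2b24* to *Scgb1b24*, *Scgb1b24* to *Scgb1b27* and *Scgb2b20* to *Scgb1b20*, were not tested because a gene of each failed the count filter. *Scgb2b24* exceeded *Scgb1b24* in counts in each of the 9 libraries.

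**Figure D3:**
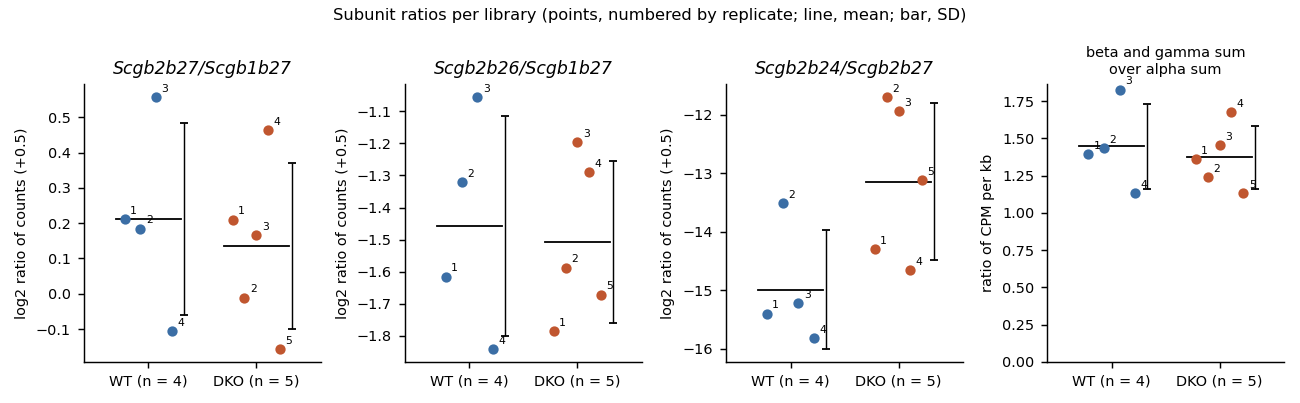
Log2 ratios of counts (0.5 added to each) for 3 subunit pairs, and the ratio of summed beta and gamma to summed alpha CPM per kb, in WT (blue) and DKO (orange) libraries with the mean as a line and the SD as a bar. The genotypes overlap in all 4 panels, and the third differs most, by 1.85 on the log2 scale.

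Outside the chosen genes, 4 secretoglobins passed the count filter, and 0 of these 4 passed an adjusted p of 0.05 in edgeR or DESeq2, while 3 of the 4 had an unadjusted edgeR p under 0.05 and were higher. The shares over all tested genes are those given above for the members, 0.166% and 1.81% called higher and 6.89% higher at the unadjusted p. *Scgb2b2*, a beta or gamma subunit gene at the far end of the cluster, had a log2 fold change of 1.26 (SE 0.44, edgeR adjusted p = 0.208, DESeq2 adjusted p = 0.051). *Scgb1b26-ps* had 1.14 (adjusted p = 0.240), *Scgb1b30* had 1.0 (adjusted p = 0.324) and *Scgb1c1*, which lies outside the cluster, had 0.29 (adjusted p = 0.683), or -0.031 with library size alone as the scaling, which is 0.25 relative to the median of all genes. Of the 61 other secretoglobin rows, 40 had no count in any library.

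The counts of the pseudogene *Scgb1b26-ps* kept a nearly fixed proportion to those of *Scgb1b27*. They were 68.2, 55.8, 71.6 and 74.2 per 1000000 *Scgb1b27* counts in WT and 61.6, 62.0, 83.4, 65.9 and 72.5 in DKO, a spread of 1.5-fold while *Scgb1b27* itself spanned 5.51-fold. The annotated transcripts are 94.3% identical over 279 aligned bases, with a longest identical run of 44 bases, and the pseudogene shares none of its 50-base words with any other gene. *Scgb1b30*, 90.2% identical to *Scgb1b27* over 491 aligned bases, had 8.05 to 17.6 counts per 1000000 *Scgb1b27* counts. *Scgb2b2* had 42.9 to 85.1 per 1000000 *Scgb2b27* counts. Whether some of these counts are reads of the abundant genes was not tested. *Scgb2b24* and *Scgb1b24* differ in this respect, ranging over 17.8-fold against *Scgb2b27* and from 0 to 76.8 per 1000000 against *Scgb1b27*.

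**Figure D4:**
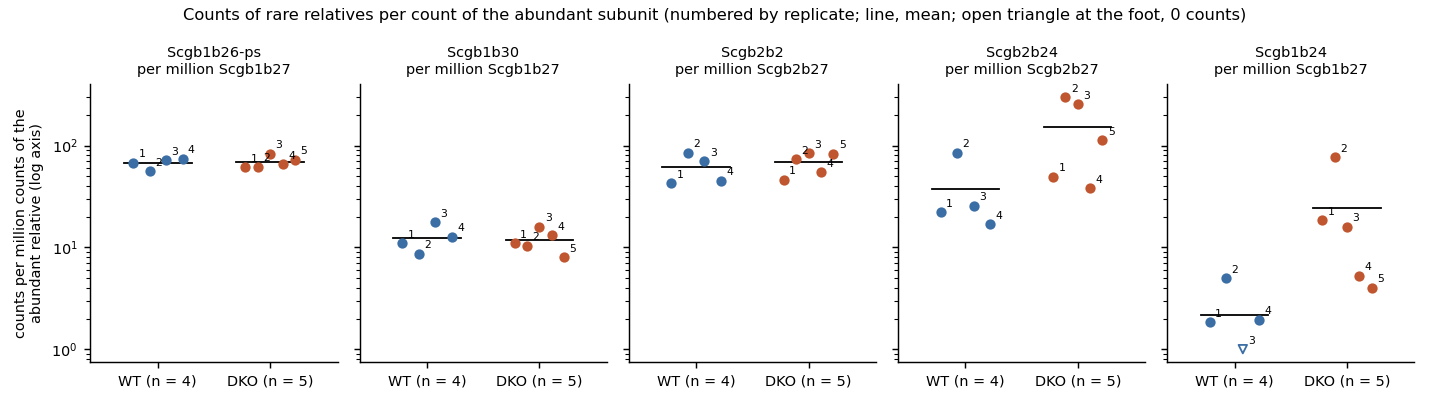
Counts of rarer family members per 1000000 counts of the abundant gene of the same subunit type (log axis) in WT (blue) and DKO (orange) libraries, with the mean as a line; the open triangle at the foot of the last panel marks 0 counts. *Scgb1b26-ps* stays between 55.8 and 83.4, whereas *Scgb2b24* runs from 16.8 to 299.9.

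The members were then read beside markers of the gland's cell types, since the SMG libraries hold RNA of all its cells. In such bulk libraries fewer cells of a type and less RNA per cell cannot be told apart. Summed CPM of 6 acinar markers (*Aqp5*, *Bhlha15*, *Mucl2*, *Pip*, *Lpo* and *Car6*) ran from 197794 to 294615 in WT and from 307587 to 546937 in DKO, and replicates 2, 3 and 5 were the highest DKO libraries here too. By edgeR 0 of 6 were called and 4 of 6 had an unadjusted p under 0.05, all higher, while DESeq2 called 3 of 6 higher, *Pip*, *Car6* and *Mucl2*. *Pip*, a secreted acinar protein, had a log2 fold change of 1.03 (edgeR adjusted p = 0.142, DESeq2 adjusted p = 0.00216). Summed CPM of 5 granular duct markers (*Egf*, *Klk1b26*, *Klk1b24*, *Klk1b21* and *Klk1b27*) ran from 26518 to 62312 in WT and from 3896 to 20970 in DKO, lowest in replicates 2, 3 and 5. Of these 5, 1 was called lower by edgeR, *Klk1b27* (log2 fold change -2.99, adjusted p = 0.0478), and all 5 by DESeq2. Over all tested genes edgeR called 0.462% lower and DESeq2 2.74%. Of 5 myoepithelial markers 2 were called lower by edgeR and all 5 by DESeq2, with sums of 595.6 to 945.9 CPM in WT and 228.6 to 536.5 in DKO.

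Set against the summed acinar markers or *Pip*, the genotypes overlapped for the 3 abundant members. *Scgb2b24* set against *Pip* overlapped as well, but DKO replicates 2, 3 and 5 lay above all WT libraries. It had 2.2e-05 to 0.000125 counts per *Pip* count in WT and 4.8e-05 to 0.00045 in DKO. The 3 abundant members summed to 0.244 to 0.365 of the acinar marker sum in WT and 0.234 to 0.411 in DKO. That sum is mostly *Mucl2*, *Car6* and *Pip*, with DKO means of 227553, 145765 and 47553 CPM. *Aqp5* and *Bhlha15*, with DKO means of 371.7 and 261.4 CPM, hardly enter it. Their log2 fold changes were smaller, 0.50 and 0.38, against 1.0 to 3.22 for the 4 tested members. Ratios to these 2 markers were not computed. *Scgb2b27* had 1.31, 1.47, 1.53 and 1.28 counts per *Pip* count in WT and 1.15, 1.5, 1.37, 1.27 and 1.34 in DKO, with means of 1.40 ± 0.12 (SD, n = 4) and 1.33 ± 0.128 (SD, n = 5). *Pip* itself had a log2 fold change of 1.03, against 1.0 for *Scgb2b27*, so near-equal mean ratios follow from these same values. Among 11873 tested genes other than the 8 members, ranked by Pearson r, *Pip* was most like *Scgb1b27* after each genotype mean was subtracted (Pearson r = 0.976, Spearman rho = 0.883 over 9 libraries, as a description). The next were *Nfya* (r = 0.968, rho = 0.967), *A630073D07Rik* (r = 0.967, rho = 0.783), *Scgb1b26-ps* (r = 0.964, rho = 0.967) and *Hadha* (r = 0.954, rho = 0.867), so the order differs by rho. The members *Scgb1b27* and *Scgb2b27* had r = 0.970 and rho = 0.933 with each other by the same subtraction. For *Scgb1b24* the most alike genes were *Ngly1* (r = 0.946, rho = 0.700), *Dusp1* (r = 0.935, rho = 0.600), *Mitf* (r = 0.932, rho = 0.917), *Tcaim* (r = 0.927, rho = 0.783) and *Gamt* (r = 0.899, rho = 0.467), where DKO replicate 2 carries most of the range. All points share the libraries and their scaling, and the part of cell makeup in the secretoglobin values was not tested.

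**Figure D5:**
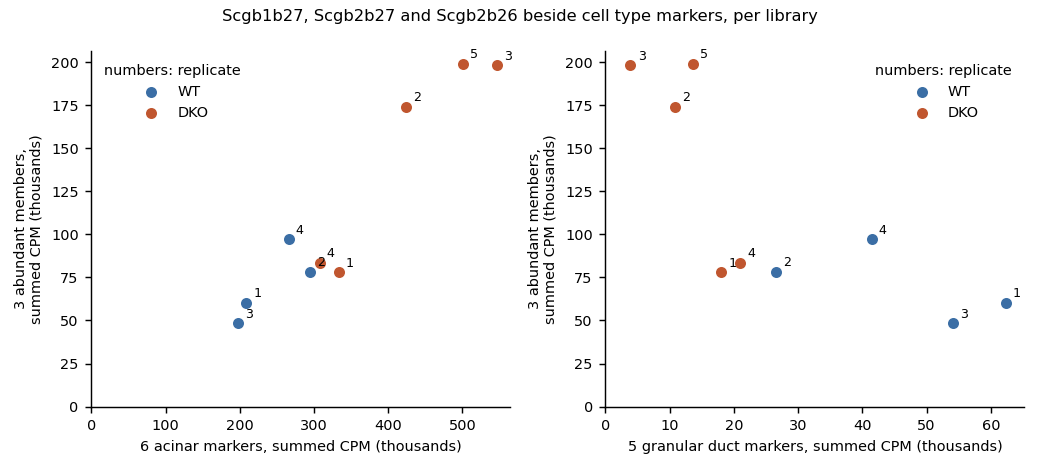
Summed CPM of *Scgb1b27*, *Scgb2b27* and *Scgb2b26* (y axis, in units of 1000 CPM) against summed CPM of 6 acinar markers (left, same units) and of 5 granular duct markers (right, same units), 1 point per library, WT blue and DKO orange, with replicate numbers. DKO replicates 2, 3 and 5 lie highest for the members and the acinar markers and lowest for the granular duct markers.

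Markers of other tissues were low apart from the parotid markers of 1 library. Summed parotid markers were 27.8 to 57.8 CPM in WT and 68.5 to 99.2 in DKO replicates 2 to 5, but 8105 CPM in DKO replicate 1, mostly *Bpifa2* (7431 CPM), with *Amy1* at 637.5 CPM. *Prh1*, another parotid marker, was at 0 in WT and reached at most 0.458 CPM, in DKO replicate 3, with 0.234 CPM in DKO replicate 1. Without DKO replicate 1, the library with the high parotid sum, the edgeR log2 fold changes of the 4 tested members stayed positive and 0 were called, all 4 having an unadjusted p under 0.05, whereas DESeq2 then called all 4 (adjusted p from 0.000398 to 0.00845), an alternative chosen after seeing the data. Sublingual markers summed to 0.650 to 7.27 CPM, lymphocyte markers to 2.06 to 5.46, adipocyte markers to 0 to 2.15 and skeletal muscle markers to 2.58 to 6.85. Of the muscle list *Acta1*, skeletal muscle actin, was called lower in DKO (log2 fold change -3.65, edgeR adjusted p = 0.0385), at 0.994 to 5.22 CPM in WT and 0.0917 to 0.508 CPM in DKO. The other muscle gene tested, *Ckm*, was higher and not called (log2 fold change 0.61, edgeR adjusted p = 0.313), so the list did not move in a single direction. The part of these genes in the secretoglobin values was not tested.

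Genes of androgen metabolism and response were examined because granular ducts and salivary secretion depend on androgens. Of 13 such genes, 7 were tested and 0 were called by edgeR or DESeq2, 1 of the 7 having an unadjusted p under 0.05 against 14.5% of all tested genes in either direction. *Srd5a1*, which converts testosterone to dihydrotestosterone, had a log2 fold change of -0.41 (SE 0.19, edgeR adjusted p = 0.340). *Fkbp5*, an androgen and glucocorticoid target, had -0.16 (SE 0.21, adjusted p = 0.801). *Hsd17b3* failed the count filter, with 9 to 50 counts in WT and 4 to 11 in DKO. In edgeR without the filter its log2 fold change was -1.60 (SE 0.47, adjusted p = 0.1205), and the groups overlapped. *Hsd3b1*, *Hsd3b6* and *Cyp19a1* had no count in any library.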

How the data were processed

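The authors made 1 Nextera XT library, which does not mark strand, from the SMG RNA of each of 4 WT and 5 DKO adult males. Per the labels, the submitters' processing notes name STAR 2.5.2a and the build GRCm38. The read counter and annotation are not given in the sources used here. The authors deposited raw counts, the same counts after a filter, and TMM-scaled signal values in CPM units, from which whole counts came back for all 158058 values (tolerance 0.01).

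Raw counts were fitted in edgeR 4.0.16 (R 4.3.3) with TMM scaling, filterByExpr (minimum count 10, minimum total 15) and the legacy quasi-likelihood test, genotype being the single term, with Benjamini-Hochberg adjustment over 13842 rows. The standard error is the log2 fold change over the square root of F. DESeq2 1.42.0 and limma 3.58.1 gave alternatives. Ratios had 0.5 added to each count and an exact permutation test in scipy 1.17.1, with numpy 2.4.6 and pandas 2.3.3. Permutation intervals hold the shifts not refused at 0.05. Transcripts came from GENCODE M21, and identities from global alignments (biopython 1.88) over aligned bases. Scripts were checked on simulated data.

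Groups follow the sample labels. p-values measure the spread between mice. Single genes named besides the members were the other tested secretoglobins, the deleted genes, the 5 genes most like *Scgb1b27* and *Scgb1b24* (tested, mean of at least 1 CPM, log2 of CPM plus 1), and genes of the androgen and marker lists. The members and lists were chosen with earlier results of these data known. The binomial intervals and the floors cover counting error only, while the permutation intervals of the ratios rest on the spread between libraries. Of the marker and androgen lists, 1 gene each is not reported here. The female libraries were not analysed here.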

Additional observations from a re-analysis of the deposited data

Results flagged for a closer look

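In groups of 4 or 5 libraries, 30 groups of values were examined for a library far from the others, of which chance alone would flag about 1 in 20, and 4 were flagged. *Scgb1b24* in DKO replicate 2 had 5.76 CPM, far above the other DKO libraries, whose highest was 1.24 CPM. *Scgb2b24* in WT replicate 2 had 2.98 CPM, far above the other WT libraries, whose highest was 0.687 CPM. *Scgb1b30* in WT replicate 4 had 0.558 CPM, from 13 counts, against at most 0.287 CPM in the other WT libraries. The summed parotid markers in DKO replicate 1 had 8105 CPM, against at most 99.2 CPM in the other DKO libraries, and the abundant secretoglobins of that library lay within the WT range.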

How the results depend on the processing

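For the members, 19 alternatives to the edgeR analysis were tried. The fold changes of the 4 tested genes kept their positive sign under all 19. The number of members called, 0, became 2 without the filter on low counts and 3 with DESeq2, and ranged from 0 to 1 when single libraries were left out, where DKO replicate 4 gave the 1. The causes were not tested. DESeq2's count of 3 ranged from 0 to 4 over single libraries left out, an alternative chosen after seeing the data. Without WT replicate 2 or WT replicate 4, the 4 called genes included *Scgb1b24*, which is not among the 4 tested genes. It passed the count filter in fits that left out a WT library, on its DKO counts, as no WT library held more than 4. The count of other secretoglobins called was 0 throughout. Library size without TMM moved the median log2 fold change of all genes to -0.28. Under it *Scgb1b27* had 0.727, *Scgb2b27* 0.659, *Scgb2b26* 0.740 and *Scgb2b24* 2.82, so that all but *Scgb2b24* were less than 2-fold higher. Relative to that median they had 1.0, 0.94, 1.02 and 3.09, a step that largely undoes the change of scaling. *Scgb1c1* had -0.031 with library size alone, which is 0.25 relative to that median. With single libraries left out, the log2 difference of *Scgb2b27* to *Scgb1b27* ranged from -0.184 to 0.038, of *Scgb2b26* to *Scgb1b27* from -0.175 to 0.086 and of *Scgb2b24* to *Scgb2b27* from 1.49 to 2.34. The sign of the first turned without WT replicate 3, to 0.038, and that of the second without WT replicate 3, to 0.086, or DKO replicate 1, to 0.022.

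Replicate numbers are shared by the genotypes but were not taken as a pairing in the main test. The correlations of same-numbered libraries were 0.133, 0.285, 0.065 and 0.011, and 2 of the 4 WT libraries correlated best with another number. So few correlations cannot show whether the libraries were paired. With the replicate block in edgeR 0 members and 0 other secretoglobins were called, 1 of each having an unadjusted p under 0.05. Within numbers, the log2 differences of the 3 ratios under this pairing were -0.005, -0.007 and 1.84 (exact permutation p = 0.875, 1 and 0.125, where 0.125 is the smallest possible). Low counts limit *Scgb1b24*, *Scgb1b20*, *Scgb2b20* and *Scgb2b7*, whose counts per library were at most 140, 0, 2 and 1. The parts of depth and of reads shared with near-identical copies in these low counts were not tested.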
